A study of Mus musculus with 33 samples.

Results

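Activated phagocytes were sorted in a pair of gates from the brains of mice labelled Cortical MS and treated with vehicle, and their messenger RNA was compared. One gate, labelled blood-derived phagocytes, held CD45-high, CD11b-high cells with CCR2, and the other, labelled activated microglia, held CD45-high, CD11b-high cells without CCR2. Each gate had 5 libraries, which makes 10 of the 33 libraries of the series, and they were chosen by their titles. They are called the CCR2+ gate and the CCR2- gate here. Strain, genotype and age of the mice are not given in the sources used here, nor whether CCR2 was read from an antibody or a reporter. The labels do not say that libraries of a gate came from separate animals, so p-values measure the spread between libraries only. The count table covers 21950 protein-coding genes, and 11598 of them passed the filter on low counts and were tested.

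CCR2 is the chemokine receptor with which inflammatory monocytes leave the bone marrow and follow CCL2 into inflamed tissue. Monocytes that have entered the brain become macrophages and take up myelin, synapses and dead cells, and they digest them in lysosomes. Microglia are the brain's own macrophages, seeded in the embryo, and carry P2RY12, TMEM119 and the transcription factor SALL1 at rest. Neutrophils and natural killer (NK) cells also carry CD45 and CD11b, and neutrophils carry little or no CCR2. A gate set by CD45, CD11b and the lack of CCR2 can therefore hold them beside microglia.

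The gates were first checked against the genes behind them. Ccr2 itself stood at 219.6, 194, 216, 254 and 219 CPM (counts scaled to a common library size) in the 5 CCR2+ libraries and at 183, 81.2, 95.5, 44.2 and 63.8 CPM in the 5 CCR2- libraries. The gates did not overlap, but the CCR2- gate was not empty of Ccr2 RNA. Since cells were sorted on this receptor, its difference of 1.24 ± 0.32 (log2 fold change ± SE) is a description of the sort. Both gates were set to high CD45 and CD11b. Ptprc, which encodes CD45, nonetheless fell in the CCR2+ gate (-0.91 ± 0.15, edgeR adjusted p = 0.00129), and Itgam, which encodes CD11b, had a difference of -0.40 ± 0.19 (edgeR adjusted p = 0.185). All fold changes below are on the log2 scale, CCR2+ over CCR2-, and all levels are CPM.

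Few microglial identity genes passed the test between the gates, and their summed share of counts in both lay below resting microglia. Tmem119 stood at 193, 156, 338, 214 and 237 CPM in the CCR2+ libraries and at 151, 6.84, 83.5, 367 and 444 CPM in the CCR2- libraries, and the CCR2- libraries lay on both sides of the CCR2+ range. P2ry12 stood at 66.9, 83.5, 148, 72.7 and 86.1 CPM in the CCR2+ libraries and at 153, 35.5, 41.1, 414 and 331 CPM in the CCR2- libraries, so that 2 of the CCR2- libraries lay below every CCR2+ library and 3 above. Its difference of -1.12 ± 0.62 did not pass (edgeR adjusted p = 0.264), and it ran from -1.39 to -0.63 with each library left out in turn. These genes were chosen for display after their values were seen, and had means of 2503 ± 364 and 2626 ± 625 CPM in the 5 libraries of the resting microglia gate (CD45-int, CD11b-int) of the same model and treatment. Of 18 homeostatic microglia genes tested, 1 was higher and 3 were lower in the CCR2+ gate (median -0.49, against 0.03 for all genes tested), where 6.48% of all genes tested were higher and 12.3% lower. The list's count is near that background. The list took 0.863 ± 0.115% of counts in the CCR2+ gate and 0.869 ± 0.246% in the CCR2- gate (SD, n = 5), and 5.23 ± 0.847% in resting microglia. Sall1, which keeps microglial identity, stood at 2.89 ± 2.74 CPM in the CCR2+ gate, 26.1 ± 26.3 CPM in the CCR2- gate and 352 ± 64.4 CPM in resting microglia. Its difference between the activated gates was -3.20 ± 1.22 (edgeR adjusted p = 0.0974). The called members were Selplg, the P-selectin ligand that neutrophils and lymphocytes also carry (-1.54 ± 0.19), the matrix protein gene Sparc (-2.67 ± 0.82), the purinergic receptor P2ry13 (-0.66 ± 0.17) and, higher, the TGF-beta receptor Tgfbr1 (1.30 ± 0.26). Without replicate 2 of the CCR2- gate, which had 9829 detected genes and the lowest Tmem119 level, 7 members were lower, and without replicate 1 of the CCR2+ gate 1 was. In bulk samples fewer cells of a type and less RNA per cell cannot be told apart.

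**Figure D1:**
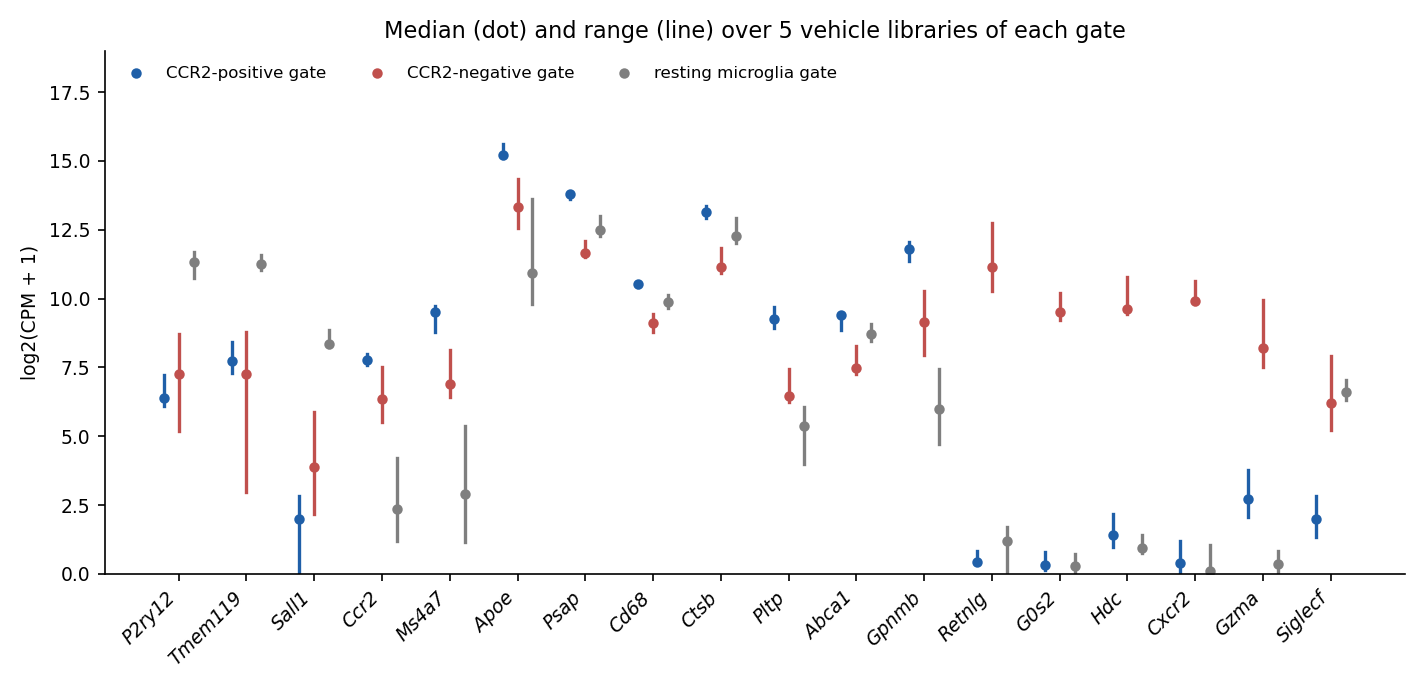
Levels of genes that mark the gates, as log2(CPM + 1), with the median (dot) and range (line) over 5 vehicle libraries of each gate. P2ry12, Tmem119 and Sall1 sit highest in the resting microglia gate. Retnlg, G0s2, Hdc and Cxcr2 are high in the CCR2- gate and near 0 in both others.

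The 10 libraries held between 16654138 and 21121208 counts each, so depth was even, but they differed in how alike they were. CCR2+ libraries had 13213 to 13617 detected genes and correlated with each other at 0.970 to 0.984 (Pearson r of log2 CPM across genes). CCR2- libraries had 9829 to 13153 detected genes and correlated at 0.751 to 0.922, and the values involving replicate 2 were the lowest. The median SD of a gene over libraries was 0.197 log2 units in the CCR2+ gate and 0.662 in the CCR2- gate. Of all genes tested, 94.9% had the larger SD in the CCR2- gate.

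Of 11598 genes, 2176 differed between the gates, 18.8% of those tested (edgeR's quasi-likelihood test, Benjamini-Hochberg adjusted p under 0.05). In the CCR2+ gate 751 genes rose (6.48%) and 1425 fell (12.3%), and 304 of the rises (2.62% of genes tested) and 1035 of the falls (8.92%) reached 1 log2 unit. The count of each gene list below stands against those shares of 6.48% and 12.3%. For rises as for falls, more cells of a type and more RNA per cell cannot be told apart in bulk samples. Values of the gates did not overlap at all for 2558 genes (22.1%), 1289 of them higher (11.1%) and 1269 lower (10.9%). Genes that fell were led by neutrophil genes with almost no reads in CCR2+ cells, and genes that rose were led by genes of the lysosome with high levels in both gates. On the authors' log2 FPKM, which are scaled in another way, limma called 1740 genes higher and 1478 lower of 10979 tested, and the median of all genes stood at 0.21 instead of 0.03. Without replicate 2 of the CCR2- gate, 3619 genes were called, 1483 higher and 2136 lower. That included 746 of the 751 rises and 1416 of the 1425 falls.

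**Figure D2:**
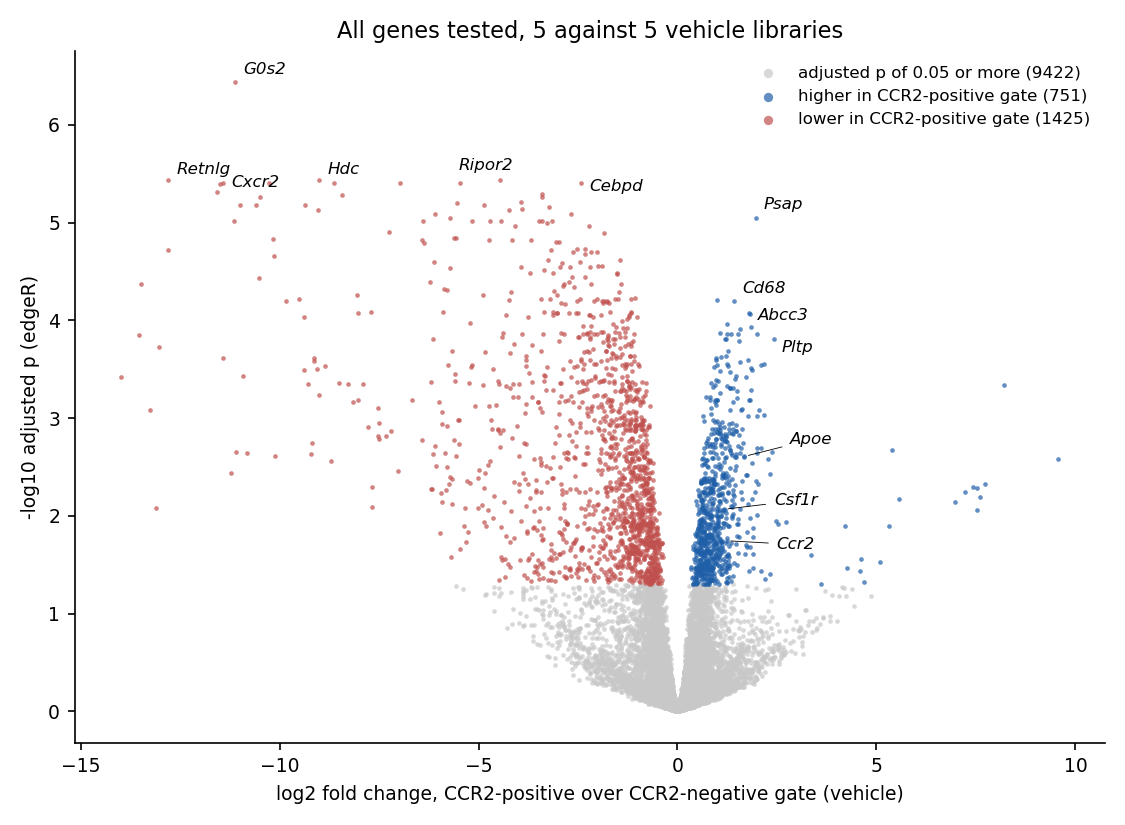
Log2 fold change of each of 11598 genes tested (x axis) and -log10 of its adjusted p from edgeR (y axis), with 751 genes higher (blue) and 1425 lower (red) in the CCR2+ gate. G0s2, Retnlg and Hdc lie far to the left and Psap highest on the right. Genes with no read in a gate are drawn at the fitted value, which depends on the prior count.

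Psap, the precursor of the saposins that help lysosomal enzymes reach their lipids (ENSMUSG00000004207, chromosome 10, 60277627 to 60302597), ranked first among genes that rose. It stood at 14275, 14257, 14659.8, 12552 and 13706 CPM in the CCR2+ libraries and at 4067, 3175, 3245, 2925 and 4357 CPM in the CCR2- libraries. Every CCR2+ library lay far above the highest CCR2- library. The rise was 1.97 ± 0.14 (edgeR adjusted p = 8.95e-06). Cd68, a heavily glycosylated lysosomal membrane protein of macrophages (ENSMUSG00000018774, chromosome 11, 69664213 to 69666153), stood at 1530.0, 1491, 1547, 1453 and 1359 CPM against 616, 551, 443, 469 and 699 CPM, a rise of 1.41 ± 0.14. Ctsb, a cysteine protease of the lysosome (ENSMUSG00000021939, chromosome 14, 63122462 to 63145923), stood at 9392, 7736, 10399, 9072 and 8207 CPM against 2656, 1957, 2288, 2045 and 3692 CPM, a rise of 1.82 ± 0.19. For these 3 genes the gates did not overlap.

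Lysosomal genes rose broadly. Of 32 lysosomal hydrolases and their activators, 19 rose and 0 fell (median 1.03), where 6.48% of all genes rose. Hexa, a subunit of the enzyme that breaks down GM2 ganglioside, rose by 1.84 ± 0.20 from 325 ± 85.7 to 1173 ± 128 CPM. Grn, the progranulin gene, rose by 1.53 ± 0.17, Lipa, the acid lipase that frees cholesterol from its esters, by 1.20 ± 0.14, and Sgsh, the heparan sulfate sulfamidase, by 1.84 ± 0.24. Acp5, the tartrate-resistant acid phosphatase, rose by 2.01 ± 0.35 from 63.1 ± 36.4 CPM. The 32 genes together took 2.77 to 2.98% of counts in the CCR2+ libraries, 0.816 to 1.41% in the CCR2- libraries and 3.22 to 3.82% in resting microglia. The CCR2- libraries were below both other gates. Mature neutrophil genes moved the other way, at 2.89 to 7.37% of counts in the CCR2- libraries and 0.0836 to 0.125% in the CCR2+ libraries, and their part in the lysosomal difference was not tested.

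Proteases and membrane proteins of the same organelle followed. Listed cathepsins and cystatins took 4.24 to 4.73% of counts in the CCR2+ libraries, 1.53 to 2.76% in the CCR2- libraries and 6.28 to 6.65% in resting microglia. Lysosomal membrane proteins took 0.982 to 1.05%, 0.547 to 0.702% and 1.09 to 1.21%. Resting microglia were thus highest for both lists. Of 19 cathepsins and cystatins, 9 rose, and these 9 were cathepsins or legumain. Ctsa, the protective protein that stabilises lysosomal sialidase and beta-galactosidase, rose by 0.98 ± 0.13 and Ctss, the cathepsin that trims the MHC class II invariant chain, by 1.28 ± 0.21 to 11133 ± 533 CPM. The 4 members that fell were protease inhibitors, the neutrophil stefins BC100530, Stfa1 and Stfa2, near-identical copies whose separate counts are uncertain, and the cystatin Cst7 (-2.20 ± 0.45). BC100530 stood at 0.105, 0, 0, 0 and 0 CPM in the CCR2+ libraries and at 34.9, 61.6, 109, 100.4 and 101 CPM in the CCR2- libraries. Among 23 lysosomal membrane and export proteins 12 rose and 0 fell (median 0.60), with Lamp1, which lines the organelle, at 1.35 ± 0.15, Npc2 and Npc1, which hand cholesterol out of it, at 1.21 ± 0.15 and 0.94 ± 0.14, and the sialic acid exporter Slc17a5 at 1.61 ± 0.24. Laptm5, also a membrane protein of late endosomes and lysosomes, had -0.06 ± 0.10 and did not pass. The proton pump that acidifies the organelle moved less, with 4 of 18 subunits higher and 2 lower (median 0.22), Tcirg1 at 0.86 ± 0.16 among the former. Both falls of the pump were unsteady, since 1 was called without replicate 1, 3, 4 or 5 of the CCR2- gate or without replicate 1 or 2 of the CCR2+ gate, and 0 by edgeR without replicate 4 or 5 of the CCR2+ gate. Glmp, a lysosomal membrane glycoprotein that is in none of the lists, was among the 15 leading rises (1.24 ± 0.14). Leaving out replicate 2 of the CCR2- gate added 1 hydrolase and 1 membrane protein that were lower.

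Promoters of the lysosomal genes were searched for TCACGTG, on both strands and with overlaps counted, because it lies within the motif through which TFEB and its relatives drive lysosomal genes. RefSeq windows of 300 bases, 250 before and 50 after the transcript start (GRCm38.p6), matched 62 of the 75 genes listed as hydrolases, cathepsins or cystatins and lysosomal membrane proteins. The motif stood in 14 of them (22.6%), against 7.04% of 9203 genes tested and 4.29% of all 27025 genes with a window. Members that rose had it in 8 of 33 windows (24.2%) and members that did not in 6 of 29 (20.7%). All genes that rose had it in 9.34% of windows and all that fell in 5.42%. These shares are a description, and a match is not a binding site. Psap, Cd68 and Hexa had no match. The 3 windows with matches of the highest-ranked rises are given 5′ to 3′ on the strand of the gene, with the motif in capitals. They lie at chr8:13158911-13159210 (Lamp1, plus strand), chr2:164833523-164833822 (Ctsa, plus strand) and chr11:119355461-119355760 (Sgsh, minus strand).
Lamp1: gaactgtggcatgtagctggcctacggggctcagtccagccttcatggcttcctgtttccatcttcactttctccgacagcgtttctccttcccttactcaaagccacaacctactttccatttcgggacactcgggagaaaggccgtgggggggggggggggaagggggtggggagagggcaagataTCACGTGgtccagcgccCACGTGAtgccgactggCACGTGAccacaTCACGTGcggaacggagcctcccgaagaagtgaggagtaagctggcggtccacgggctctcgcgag
Ctsa: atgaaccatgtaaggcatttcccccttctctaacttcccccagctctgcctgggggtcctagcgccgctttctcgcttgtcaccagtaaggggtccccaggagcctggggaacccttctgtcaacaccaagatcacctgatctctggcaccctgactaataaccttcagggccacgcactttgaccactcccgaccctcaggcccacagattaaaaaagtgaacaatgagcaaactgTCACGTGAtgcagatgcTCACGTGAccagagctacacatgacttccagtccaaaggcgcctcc
Sgsh: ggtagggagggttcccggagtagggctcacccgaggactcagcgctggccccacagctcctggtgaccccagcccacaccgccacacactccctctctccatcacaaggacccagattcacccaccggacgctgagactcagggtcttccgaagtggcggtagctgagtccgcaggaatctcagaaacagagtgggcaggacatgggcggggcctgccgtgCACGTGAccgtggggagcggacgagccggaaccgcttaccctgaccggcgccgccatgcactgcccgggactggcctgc

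The Lamp1 window holds 4 separate copies just before the start, between -62 and -10. The Ctsa window holds 2 blocks of 8 bases that read as the motif on either strand, one before the start and one just after it. Of the factors themselves, Tfeb (-0.30 ± 0.18), Tfe3 (0.33 ± 0.51) and Mitf (0.99 ± 0.50) did not pass the test between the gates. Tfec, a relative found in macrophages, stood at 9.47 ± 1.64 CPM against 0.884 ± 1.22 CPM and did not pass either (edgeR adjusted p = 0.12).

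Some genes that move cholesterol out of the cell rose. Of 14 cholesterol efflux and LXR target genes, 5 rose, 0 fell and 9 did not pass (median 0.28), where 6.48% of all genes rose. Pltp, the phospholipid transfer protein, stood at 499, 481, 822, 685 and 614 CPM in the CCR2+ libraries and at 172, 166, 74.2, 87.2 and 82.3 CPM in the CCR2- libraries, a rise of 2.42 ± 0.28 (edgeR adjusted p = 0.000157). Apoe, the main lipid carrier of the brain (ENSMUSG00000002985, chromosome 7, 19696109 to 19699188), stood at 38470.1, 34905, 50076, 35486 and 42528 CPM against 16724, 10147, 9172, 6039 and 20768 CPM, a rise of 1.68 ± 0.30. The gates did not overlap, and the CCR2- libraries were spread widely. Apoc2, an activator of lipoprotein lipase, rose by 1.80 ± 0.26, the exporter Abca1 by 1.47 ± 0.23 and Nr1h3, which encodes LXR-alpha, by 2.01 ± 0.46. The other exporter, Abcg1, had 0.60 ± 0.19 (edgeR adjusted p = 0.0511). Abcc3, an exporter of conjugated organic anions that followed Psap and Cd68 in rank, stood at 345, 361, 402, 424 and 481 CPM against 165, 129, 88.2, 97.7 and 98.0 CPM (1.80 ± 0.19). Without replicate 1, 2 or 5 of the CCR2- gate 1 member of the efflux list was lower. The part of the neutrophil share of the CCR2- gate in the efflux rises was not tested. Enzymes that make cholesterol gave 0 rises and 2 falls among 18 (median -0.14), a count near the 12.3% of all genes that fell. The falls were Srebf2 (-0.68 ± 0.14), the factor that switches on the pathway, and Sc5d (-0.99 ± 0.27). Without replicate 4 of the CCR2- gate, or without replicate 1, 3 or 5 of the CCR2+ gate, 1 of them was called.

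Receptors that take up lipid and debris held members called in either direction. Among 16 scavenger and lipid uptake genes 7 rose and 1 fell (median 0.79). Fabp5, which carries fatty acids inside the cell, rose by 2.0 ± 0.23, the scavenger receptor Msr1 by 1.99 ± 0.35, Scarb1 by 0.98 ± 0.16 and the lipoprotein receptor Lrp1 by 0.92 ± 0.20, while Olr1 fell (-1.86 ± 0.49). No member was lower without replicate 4 of the CCR2- gate or without replicate 1, 2, 4 or 5 of the CCR2+ gate, where the edgeR adjusted p of Olr1 was 0.0512 to 0.0625, and 2 were lower without replicate 2 of the CCR2- gate. Of 19 receptors and adaptors for dead cells and debris, 5 rose and 5 fell (median -0.18). Trem2, the lipid receptor of microglia and macrophages (1.48 ± 0.27), and Itgb5, a subunit of a receptor for bridging proteins on dead cells (1.36 ± 0.29), rose. Rac2, a small GTPase of haematopoietic cells that neutrophils use for oxidant production (-2.32 ± 0.20), and the phosphatidylserine receptor Cd300lf (-1.54 ± 0.17) fell. Lipid storage gave 2 rises and 5 falls among 15 genes (median -0.58). Soat1, which makes cholesterol esters, rose by 1.09 ± 0.19 alongside Lipa, which cleaves them. Dgat1 and Dgat2, which make triglyceride, fell (-4.10 ± 0.48 and -2.27 ± 0.34), and so did Mgll, the monoglyceride lipase (-4.47 ± 0.73). Mature neutrophil genes were also lower in the CCR2+ gate, at 2.89 to 7.37% of counts in the CCR2- libraries and 0.0836 to 0.125% in the CCR2+ libraries. Their part in the rises of this paragraph and in the falls of Rac2, Olr1 and the lipid storage genes was not tested.

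Genes of macrophage maturation and of monocytes differed in their counts. Of 21 genes of monocyte-derived macrophage maturation, 10 rose, 3 fell and 8 did not pass (median 0.89). The list took 1.85 to 2.19% of counts in the CCR2+ libraries and 1.10 to 1.58% in the CCR2- libraries. In resting microglia it took 3.04 to 3.52%, above both activated gates. Adgre1, which encodes the macrophage marker F4/80, stood at 1079, 860.3, 1253, 1003 and 1137 CPM in the CCR2+ libraries and at 539, 66.5, 306, 218 and 359 CPM in the CCR2- libraries (1.83 ± 0.42). Csf1r, the receptor on which macrophages and microglia depend, stood at 3577, 3679.8, 4281, 3527 and 4345 CPM against 2247, 1007, 1020.4, 2093 and 2210.2 CPM, a rise of 1.17 ± 0.26 (edgeR adjusted p = 0.00858). Neither gene overlapped between the gates. Mpeg1, the pore-forming perforin-2 of macrophages, rose by 1.29 ± 0.21 and Tgfbi, a secreted matrix protein, by 1.11 ± 0.18. The 3 falls were the paired and inhibitory receptors Lilrb4a (-1.85 ± 0.25), Pilra (-1.43 ± 0.20) and Cd300lb (-1.79 ± 0.37). C1qb, a chain of the complement starter C1q, stood at 2547 ± 146 CPM against 1425 ± 739.8 CPM and did not pass (0.83 ± 0.29, edgeR adjusted p = 0.0732). What part the neutrophil share of the CCR2- gate had in the maturation rises was not tested.

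Of 18 monocyte genes 4 rose and 7 fell (median 0.01). The rises were Ccr2, which the sort used, and Fn1, Ms4a6c (1.41 ± 0.29) and Ms4a4c (0.96 ± 0.27), the latter pair encoding membrane-spanning proteins of monocytes. The falls included the calcium-binding protein gene S100a6 (-3.13 ± 0.28), the glutathione reductase Gsr (-3.15 ± 0.23) and Cd44, the hyaluronan receptor (-1.45 ± 0.17). Several of these falls are of genes that neutrophils and lymphocytes also carry, and the part of the neutrophil share given above was not tested. The list took 0.437 to 1.04% of counts in the CCR2+ libraries and 0.61 to 0.914% in the CCR2- libraries, so the gates overlapped. Of 19 genes known from disease-associated microglia 8 rose and 4 fell (median 0.25). The rises included Lyz2, a lysozyme of macrophages and neutrophils (1.24 ± 0.16), beside Cd68, Fabp5, Gpnmb, Apoe and Trem2. The falls included the growth factor Csf1 (-4.71 ± 0.35), beside Ccl6 and Cst7.

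Some genes known from macrophages at the brain's borders rose too, but Mrc1, Cd163 and Lyve1, by which those cells are known, did not pass. Of 15 border-associated macrophage genes 5 rose and 0 fell (median 0.40). Ms4a7 stood at 685, 441, 792, 851 and 723 CPM in the CCR2+ libraries and at 281, 84.7, 185, 119 and 105 CPM in the CCR2- libraries (2.17 ± 0.33). F13a1, a coagulation factor subunit (2.0 ± 0.31), Cd38, an NAD-consuming enzyme (1.59 ± 0.28), the scavenger receptor Stab1 (1.15 ± 0.32) and the endocytic adaptor Dab2 (0.91 ± 0.28) made up the rest. Mrc1, Cd163 and Lyve1 had mean levels of 71.0, 0.727 and 0.222 CPM in the CCR2+ gate and 71.9, 8.33 and 4.34 CPM in the CCR2- gate. The count of rises was 3 without replicate 3, 4 or 5 of the CCR2- gate and without replicate 1, 3 or 5 of the CCR2+ gate. Without replicate 2 of the CCR2- gate 4 members were lower, and without replicate 3 of the CCR2+ gate 1 was. For the rises of this list too, the part of the neutrophil share was not tested.

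Matrix and repair genes gave 6 rises and 0 falls among 22 (median 0.80). Mmp14, a membrane-bound protease that cleaves collagen, stood at 417, 513, 462, 529 and 459.6 CPM in the CCR2+ libraries and at 202, 136, 117, 79.1 and 167 CPM in the CCR2- libraries (1.77 ± 0.22, edgeR adjusted p = 0.000257). Gpnmb, a transmembrane glycoprotein of lipid-laden macrophages, rose by 2.37 ± 0.42 from 645 ± 418 to 3336 ± 701 CPM, and fibronectin, Fn1, by 2.05 ± 0.31. Sdc3, a cell surface proteoglycan, rose by 1.49 ± 0.21. Arg1, the arginase of repair-type macrophages, stood at 36.8 ± 20.9 CPM against 11.1 ± 9.39 CPM and did not pass (edgeR adjusted p = 0.0692). Leaving out replicate 2 of the CCR2- gate made 1 member lower. Matrix and repair rises were not tested for the part of the neutrophil share of the CCR2- gate.

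The opposite side of the comparison was led by neutrophil genes. All 20 mature neutrophil genes passed the filter and all 20 fell in the CCR2+ gate (median -8.83), where 12.3% of all genes fell. G0s2, an inhibitor of the triglyceride lipase ATGL that neutrophils express highly (ENSMUSG00000009633, chromosome 1, 193272161 to 193273217), stood at 0.263, 0.388, 0.739, 0.26 and 0.106 CPM in the CCR2+ libraries and at 649.9, 806, 729, 1189 and 601 CPM in the CCR2- libraries. It had the smallest p of all genes (-11.13 ± 0.44, edgeR adjusted p = 3.67e-07). Retnlg, a resistin-like protein of neutrophils (ENSMUSG00000022651, chromosome 16, 48872621 to 48874496), stood at 0.315, 0.333, 0.581, 0.312 and 0.793 CPM against 2278, 1232, 1989, 6883 and 4197 CPM. Hdc, which makes histamine (ENSMUSG00000027360, chromosome 2, 126593667 to 126619299), stood at 1.63, 3.49, 2.32, 0.988 and 1.43 CPM against 1084, 689.6, 782, 1768 and 726 CPM. Ly6g, the antigen by which mouse neutrophils are sorted, stood at 0, 0.277, 0.0528, 0 and 0.0529 CPM against 114, 73.6, 103, 363 and 252 CPM. No CCR2+ library came near a CCR2- library for any of these 4 genes. Resting microglia had 0.326 ± 0.282 CPM of G0s2 and 1.10 ± 0.934 CPM of Retnlg.

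The list of 20 took 2.89 to 7.37% of all counts in the CCR2- libraries, 0.0836 to 0.125% in the CCR2+ libraries and 0.0857 to 0.105% in resting microglia. Replicate 4 of the CCR2- gate was highest for G0s2, Hdc and Retnlg. Granule genes followed. Of 9 genes of specific granules 7 fell, among them Lcn2, the siderophore-binding lipocalin (-8.06 ± 0.78), lactoferrin, Ltf (-9.07 ± 1.17), and cathelicidin, Camp (-8.86 ± 1.13). The 1 that rose was Cybb, the oxidase subunit that macrophages share (1.05 ± 0.22), and Chil3 (0.48 ± 0.61) did not pass. Of 7 genes listed with gelatinase granules 6 fell, led by Mmp9 (-10.50 ± 0.69) and Padi4, an enzyme of the nucleus that citrullinates histones (-5.86 ± 0.56). Of 6 genes listed with azurophil granules, which form early in the bone marrow, only 2 passed the filter. The 1 that fell was Serpinb1a (-5.96 ± 1.47), a protease inhibitor of the cytosol and not a granule protein. Without replicate 3 of the CCR2- gate 1 gelatinase granule gene was higher.

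Other leading falls were genes with wider known roles. Ripor2, a RHOA inhibitor of leukocytes (ENSMUSG00000036006, chromosome 13, 24582189 to 24733816), stood at 11.7, 12.9, 12.3, 6.86 and 7.56 CPM in the CCR2+ libraries and at 247, 196, 265, 254 and 165 CPM in the CCR2- libraries (-4.46 ± 0.25). Igf1r, the IGF-1 receptor, fell (-3.40 ± 0.22), the calcium-binding protein gene S100a11 (-3.39 ± 0.22) and Il18rap, a chain of the interleukin-18 receptor that NK and T cells also carry, (-5.46 ± 0.33). Rdh12, a retinol dehydrogenase (-8.44 ± 0.54), and Lrg1, a secreted leucine-rich glycoprotein (-6.96 ± 0.41), completed the group. The part of the neutrophil signal in these falls was not tested.

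**Figure D3:**
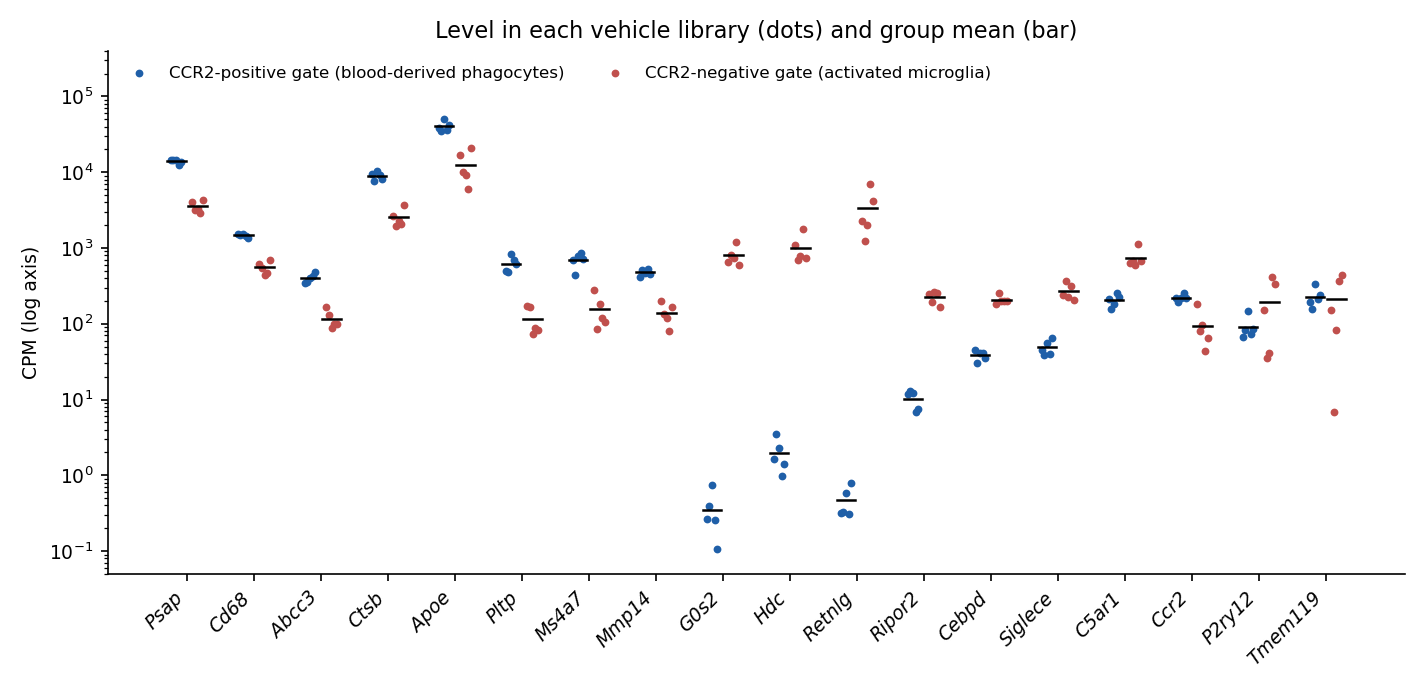
Level in CPM (log axis) of 18 genes in each of the 5 CCR2+ (blue) and 5 CCR2- (red) vehicle libraries, with the mean of each gate as a bar. Gates are apart for the first 15 genes and for Ccr2, and they overlap for P2ry12 and Tmem119. CCR2- libraries scatter more than CCR2+ libraries for most genes.

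Markers of lymphocytes and eosinophils also fell, while the summed shares of dendritic cell markers overlapped between the gates. Of 14 NK and cytotoxic lymphocyte genes 13 fell (median -5.19). Gzma, a killer granule protease, stood at 5.57, 11.1, 12.8, 3.22 and 5.66 CPM in the CCR2+ libraries and at 219, 619.8, 991, 293 and 184 CPM in the CCR2- libraries (-5.90 ± 0.61). Ncr1, the activating receptor NKp46, fell (-6.16 ± 0.71) from 159 ± 125 CPM. The list took 0.117 to 0.488% of counts in the CCR2- libraries and 0.0118 to 0.0265% in the CCR2+ libraries. Of 15 T cell genes tested 11 fell (median -2.98), and the list summed to 0.0154 to 0.0523% of counts against 0.00184 to 0.00742%. Cd247, a signalling chain of the T cell receptor complex that NK cells share, stood at 1.26, 1.72, 0.264, 0.52 and 0.529 CPM against 15.9, 16.6, 55, 14 and 26.0 CPM (-4.88 ± 0.67), and Lck, a kinase of T and NK cells, fell (-3.85 ± 0.65). Without replicate 3 of the CCR2- gate, or without replicate 1, 4 or 5 of the CCR2+ gate, 7 T cell genes fell.

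B cell genes gave 4 falls and 1 rise among 7 tested (median -7.77), with Ms4a1, which encodes CD20, at -8.27 ± 1.12 and Cd79a, a chain of the B cell receptor, at -7.91 ± 1.08. The rise was Cd22 (0.89 ± 0.25), an inhibitory receptor that microglia can also carry. It was not called without replicate 1, 3 or 4 of the CCR2- gate or without replicate 1, 2, 3 or 5 of the CCR2+ gate. The 9 of 11 listed B cell genes with counts available took 0.00699 to 0.0396% of counts in the CCR2- libraries and 0.00514 to 0.00727% in the CCR2+ libraries. Eosinophil genes fell in all 5 cases tested of 7 listed (median -7.52). Siglecf, an inhibitory lectin of eosinophils and activated microglia, stood at 2.94, 6.10, 5.12, 1.56 and 2.48 CPM in the CCR2+ libraries and at 36.0, 72.6, 239, 109.6 and 65.7 CPM in the CCR2- libraries (-4.84 ± 0.58). Prg2, the major basic protein, had no read in the CCR2+ gate and was at least 1788-fold lower there, with a floor of 3 counts over the group. Lists of neurons (3 tested), astrocytes (8 tested) and basophils and mast cells (3 tested) gave 0 calls by edgeR, while 2 neuronal genes, 3 astrocyte genes and 1 basophil and mast cell gene were lower without replicate 2 of the CCR2- gate. Oligodendrocyte genes gave 1 fall, Mbp (-1.06 ± 0.30). Mbp was not called without replicate 1 or 4 of the CCR2- gate or without replicate 1, 2, 4 or 5 of the CCR2+ gate, and 2 members were lower without its replicate 3.

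Of 14 conventional dendritic cell genes 0 rose and 1 fell (median -0.79), the transcription factor Irf4 (-1.21 ± 0.35), and 0 to 3 fell with a library left out. The list took 0.0455 to 0.0559% of counts in the CCR2+ libraries and 0.0334 to 0.0932% in the CCR2- libraries. Of 8 plasmacytoid dendritic cell genes 1 rose, Bst2, which interferon also induces, and 1 fell, the transcription factor Runx2 (-1.39 ± 0.33). That list took 0.063 to 0.0722% of counts against 0.0628 to 0.0757%, so both dendritic cell lists overlapped between the gates. Without replicate 2 of the CCR2- gate 3 conventional and 2 plasmacytoid genes fell.

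**Figure D4:**
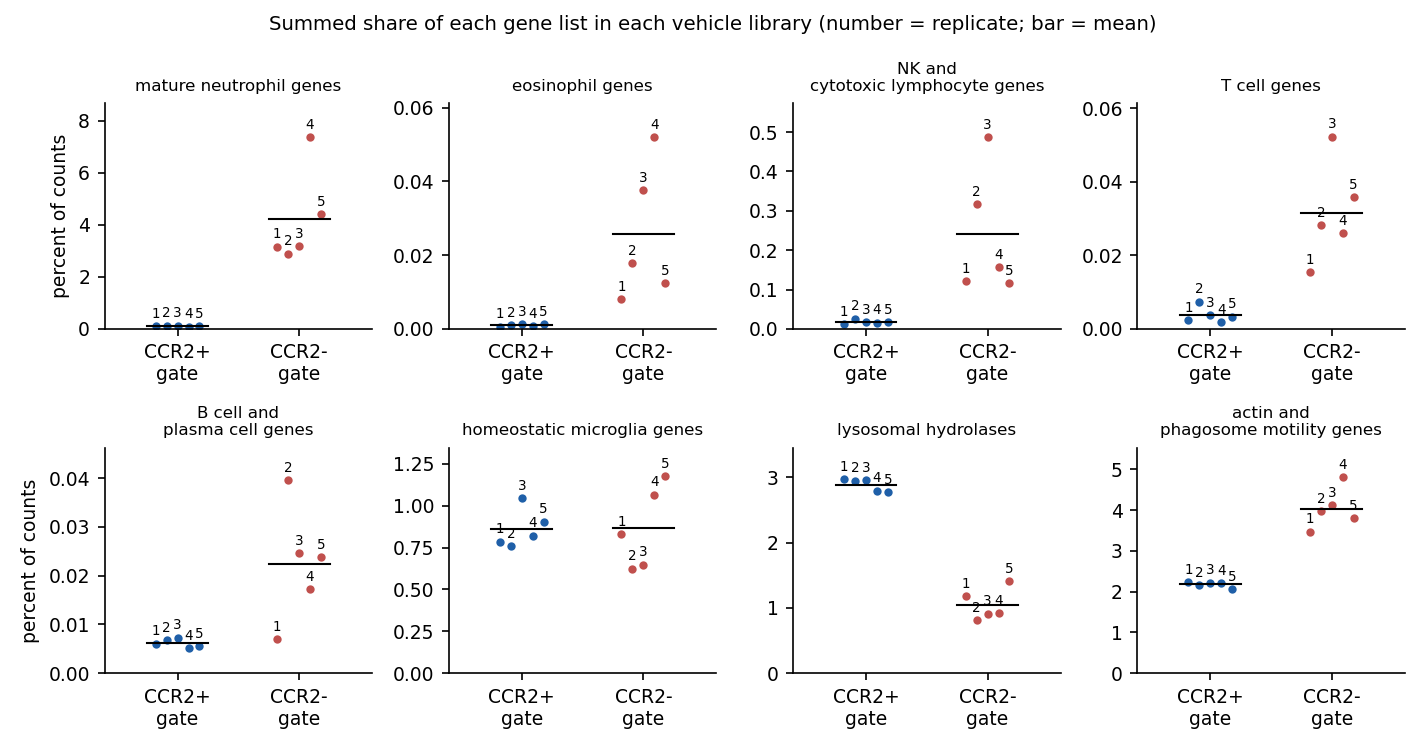
Percent of all counts taken by each of 8 gene lists in each vehicle library, CCR2+ gate left (blue) and CCR2- gate right (red), with replicate numbers and the mean as a bar. Neutrophil genes run from 2.89 to 7.37% in the CCR2- gate, replicate 3 is highest for NK and T cell genes and replicate 2 for B cell genes. Homeostatic microglia genes overlap between the gates.

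Genes of transcription and signalling were called in either direction. Among 30 myeloid transcription factors 5 rose and 8 fell (median -0.02). Cebpd, a C/EBP factor induced in inflammation (ENSMUSG00000071637, chromosome 16, 15887286 to 15891031), stood at 44.4, 30.6, 41.0, 40.6 and 35.0 CPM in the CCR2+ libraries and at 182, 254, 202, 197 and 201 CPM in the CCR2- libraries (-2.43 ± 0.14, edgeR adjusted p = 3.9e-06). Cebpb fell (-1.64 ± 0.20) and Cebpe, needed for neutrophil granules, (-5.91 ± 0.93), whereas Cebpa, their relative in myeloid commitment, rose by 1.39 ± 0.22. Irf5, which drives inflammatory macrophage genes, rose by 0.97 ± 0.12, and Atf3 and Klf4 by 1.30 ± 0.38 and 1.21 ± 0.36. Junb fell (-1.32 ± 0.17). Without replicate 3, 4 or 5 of the CCR2- gate, and without replicate 3 or 5 of the CCR2+ gate, 3 factors rose. The mature neutrophil list was also lower in the CCR2+ gate. In replicates 1 to 5 of the CCR2- gate it took 3.16, 2.89, 3.19, 7.37 and 4.42% of counts. Cebpd stood at 182, 254, 202, 197 and 201 CPM in the same libraries. The part of the neutrophil list in the C/EBP falls was not tested.

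Of 21 TNF and NF-kB pathway genes 9 fell and 2 rose (median -0.79). Ltb, a membrane-bound cytokine of lymphocytes, stood at 15.1, 20.5, 18.9, 12.5 and 18.8 CPM in the CCR2+ libraries and at 94.5, 261, 194, 158 and 114 CPM in the CCR2- libraries (-3.25 ± 0.28). Nfkbia, the inhibitor of NF-kB that the pathway induces, fell (-2.28 ± 0.26), the TNF receptor Tnfrsf1a (-1.38 ± 0.15) and the adaptor Traf1 (-1.91 ± 0.24). The other TNF receptor, Tnfrsf1b, rose by 0.78 ± 0.15, and Tnfsf13, which encodes the B cell factor APRIL, by 2.10 ± 0.27. With replicate 2 of the CCR2- gate left out, 14 members fell. Interleukin-1 genes gave 8 falls and 1 rise among 17 (median -1.38). Il1b, the cytokine itself, stood at 2848 ± 1242 CPM against 7820.3 ± 1560.1 CPM (-1.46 ± 0.29), the decoy receptor Il1r2 of neutrophils fell (-4.88 ± 0.47) and the interleukin-18 binding protein Il18bp rose by 1.20 ± 0.21. Of 24 interferon response genes 8 fell and 1 rose (median -0.72). Rsad2, the antiviral viperin, stood at 36.9, 70.6, 27.7, 35.7 and 39.7 CPM against 167, 196, 241, 201 and 163 CPM (-2.20 ± 0.24), Isg15 fell (-2.70 ± 0.34) and Bst2 rose by 0.91 ± 0.15.

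Of 21 receptors for chemoattractants 9 fell, 2 rose and 10 did not pass (median -1.12). Cxcr2, through which neutrophils follow CXCL1 and CXCL2, fell (-11.42 ± 0.69) and Fpr1, the receptor for bacterial formyl peptides, (-3.47 ± 0.26). Ccr1, a receptor of monocytes and neutrophils, fell (-2.21 ± 0.17), and the rises were Ccr2, which the sort used, and the UDP receptor P2ry6 (0.84 ± 0.17). Among complement genes 2 rose and 3 fell of 20 (median 0.13), near the shares of all genes. C5ar1, the main receptor for C5a, stood at 211, 159, 180.1, 254 and 228 CPM in the CCR2+ libraries and at 642, 672, 596, 1140.5 and 681 CPM in the CCR2- libraries (-1.86 ± 0.22). C3ar1, the receptor for C3a, rose by 1.82 ± 0.26, and factor B of the alternative pathway, Cfb, by 2.33 ± 0.45. Without replicate 5 of the CCR2- gate 5 complement genes rose. Among 12 CC chemokines 0 rose and 2 fell by edgeR, Ccl6 (-2.16 ± 0.18) and the lymphocyte product Ccl5 (-2.45 ± 0.38), and 4 fell without replicate 2 of the CCR2- gate. Cxcl16, a membrane-bound chemokine of macrophages, rose by 1.32 ± 0.23, while the neutrophil attractants Cxcl2 and Cxcl3 fell (-2.67 ± 0.38 and -5.61 ± 0.95). Among 9 CXC chemokines 1 rose and 2 fell, and 2 rose without replicate 2 of the CCR2- gate.

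Inhibitory receptors of the Siglec, LILR and PILR kind gave 11 falls and 4 rises among 20 (median -1.48). Siglece, a sialic acid receptor that dampens neutrophils and microglia, stood at 44.6, 38.4, 56.0, 39.9 and 64.7 CPM in the CCR2+ libraries and at 236, 366, 223, 312 and 204 CPM in the CCR2- libraries (-2.46 ± 0.21). Siglecg fell (-3.13 ± 0.32), Lilra6 (-3.02 ± 0.31) and Cd33 (-1.57 ± 0.17). Lilrb4a, an inhibitory receptor of myeloid cells, stood at 665, 748, 489, 794 and 588 CPM against 2855, 1631, 1865, 3477 and 1896 CPM. Sirpa, the receptor of the CD47 signal that restrains phagocytosis, rose by 0.67 ± 0.16, Lair1, a collagen receptor, by 1.04 ± 0.26 and Clec12a by 0.91 ± 0.23. Lilra6 and Lilrb4a have close copies in the genome, so their counts are uncertain. The share of neutrophil genes given above was also lower in the CCR2+ gate. Its part in the cytokine, chemoattractant and inhibitory receptor falls was not tested.

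Of 20 genes of actin and phagosome motility 13 fell, 7 did not pass and 0 rose by edgeR (median -0.73), where 12.3% of all genes fell. Lsp1, an F-actin binding protein of leukocytes, stood at 313, 302, 354, 234 and 299.7 CPM in the CCR2+ libraries and at 791, 679.6, 1018, 1166 and 789 CPM in the CCR2- libraries (-1.57 ± 0.18). Ezr fell (-1.27 ± 0.16), the Arp2/3 regulator Coro1a (-1.20 ± 0.17), the bundling protein Lcp1 (-1.29 ± 0.18) and beta-actin, Actb, (-0.96 ± 0.15) to 6904 ± 263 CPM. The list took 2.06 to 2.23% of counts in the CCR2+ libraries, 3.47 to 4.80% in the CCR2- libraries and 1.60 to 1.78% in resting microglia. The part of the neutrophil signal was not tested. Without replicate 2 of the CCR2- gate 2 members were higher, and without replicate 3 of that gate 1 was.

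Some genes of antigen presentation and protein folding rose modestly. Of 12 MHC class II genes 4 rose and 1 fell (median 0.67). H2-Aa and H2-Ab1, the chains of I-A, rose by 1.03 ± 0.26 and 0.99 ± 0.27, and H2-DMa and H2-DMb1, which load peptide, by 0.84 ± 0.24 and 0.82 ± 0.22. Cd74, the invariant chain, had 0.83 ± 0.27 (edgeR adjusted p = 0.0565). The costimulator Cd80 stood at 12.3, 14.8, 23.2, 9.62 and 18.3 CPM in the CCR2+ libraries and at 60.2, 37.1, 30.4, 80.9 and 38.5 CPM in the CCR2- libraries (-1.67 ± 0.34). The count of class II rises was 2 without replicate 3 of the CCR2- gate or replicate 2 of the CCR2+ gate, and 1 without replicate 4 or 5 of the CCR2+ gate. In turn 2 members fell without replicate 2 or 4 of the CCR2- gate. Of 21 folding genes of the endoplasmic reticulum 9 rose and 0 fell (median 0.55). They took 0.557 to 0.683% of counts in the CCR2+ libraries, 0.338 to 0.465% in the CCR2- libraries and 0.907 to 1.03% in resting microglia. Canx, the lectin chaperone calnexin, stood at 581, 575, 628, 568 and 629 CPM against 346, 257, 254, 275 and 285 CPM (1.07 ± 0.12, edgeR adjusted p = 0.000133). Calr, its soluble partner, rose by 0.64 ± 0.12 and P4hb, a disulfide isomerase, by 0.69 ± 0.14, while Hspa5, the stress-induced BiP, had 0.17 ± 0.15. Leaving out replicate 1 of the CCR2+ gate left 5 rises, and leaving out replicate 2 of the CCR2- gate made 1 member lower. In the class II and folding rises the part of the neutrophil share of the CCR2- gate was not tested.

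**Figure D5:**
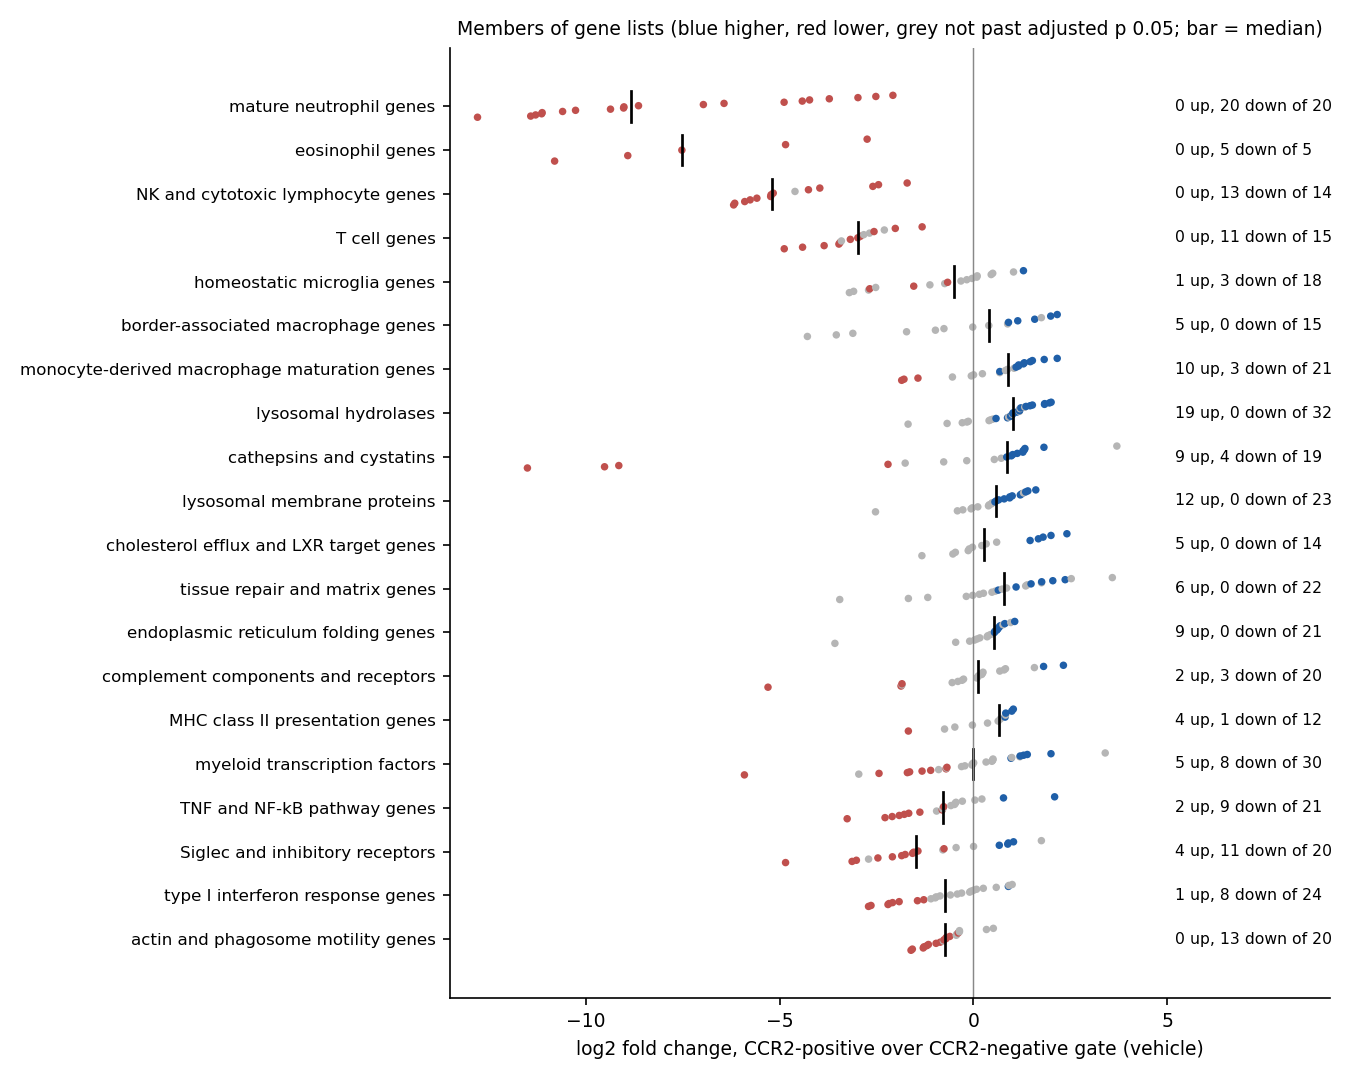
Log2 fold change of each tested member of 20 gene lists, coloured blue where higher, red where lower and grey where adjusted p was 0.05 or more, with the median of the list as a bar. Medians of the lysosomal lists lie right of 0 and those of leukocyte marker lists far left, and homeostatic microglia genes lie on both sides. The cathepsin and cystatin list also has members far left of 0. Members with no read in the CCR2+ gate are drawn at their lower bound.

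The same gates were compared in mice given the CSF1R inhibitor, with 6 libraries per gate and none shared with the vehicle comparison. There 2348 of 11614 genes differed (20.2%), 723 higher (6.23%) and 1625 lower (14%) in the CCR2+ gate. Rises shared by both treatments numbered 373, which is 49.7% of the vehicle and 51.6% of the inhibitor rises. Shared falls numbered 1026, or 72% of the vehicle and 63.1% of the inhibitor falls, and 0 genes called in both went in opposite directions. Psap rose by 2.42 ± 0.33 (edgeR adjusted p = 0.000193) and Apoe by 2.94 ± 0.47 under the inhibitor, while G0s2 fell (-10.50 ± 0.58). Lysosomal hydrolases gave 17 rises and 1 fall of 32, and mature neutrophil genes 20 falls of 20. In a direct test of the gate difference against treatment, 0 of 12568 genes passed by edgeR, 682 had an unadjusted p under 0.05 and DESeq2 called 32. The lack of edgeR calls does not show that the gate difference was equal under both treatments.

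The 10 genes nearest to a treatment difference, 5 in each direction, all missed the threshold. Egr1, an immediate early transcription factor, stood at 651 ± 126 and 1395 ± 369 CPM in the CCR2+ and CCR2- gates with vehicle (-1.10 ± 0.20) and at 1143 ± 239 and 1020.4 ± 188 CPM with inhibitor. The difference between those contrasts was 1.25 ± 0.27 (edgeR adjusted p = 0.492). Saa3, an acute phase protein that macrophages make, had 0.47 ± 0.37 with vehicle and 2.74 ± 0.36 with inhibitor, a difference of 2.30 ± 0.53 (edgeR adjusted p = 0.492). Creb5 (2.96 ± 0.60) and Siglecg (1.90 ± 0.47) also had a positive value. Zdhhc18, a palmitoyl transferase, had -1.07 ± 0.15 with vehicle and -1.94 ± 0.14 with inhibitor. Setmar, Cenph and A130051J06Rik had mean levels under 10 CPM in every one of these gates and treatments.

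Genes found only in the authors' log2 FPKM table, mostly without a protein product, were tested with limma on those values. Of 675 tested, 275 differed (40.7%), 53 higher (7.85%) and 222 lower (32.9%) in the CCR2+ gate. Among all genes of those values, 29.3% of 10979 differed, 15.8% higher and 13.5% lower. The long noncoding RNA 4833407H14Rik stood at 1.23, 1.56, 1.62, 1.45 and 1.54 log2 FPKM in the CCR2+ libraries and at 6.42, 6.80, 6.16, 6.74 and 6.05 in the CCR2- libraries. It fell (-4.96 ± 0.19, limma adjusted p = 5.58e-09). Gm37347 stood at 0.81 ± 0.33 against 4.71 ± 0.07 log2 FPKM (SD, n = 5) and the antisense gene BC018473 at 0.09 ± 0.19 against 6.20 ± 0.88. Ifi30, which encodes the thiol reductase of lysosomal antigen processing and is typed in the annotation as a processed transcript, stood at 8.59, 8.68, 8.51, 8.71 and 8.40 log2 FPKM in the CCR2+ libraries and at 7.80, 6.69, 7.10, 6.76 and 7.49 in the CCR2- libraries, a rise of 1.41 ± 0.20. Whether the counting used strand is not given in the sources used here, so reads of antisense genes and their partners cannot be told apart. Leaving out replicate 4 of the CCR2- gate lowered the calls to 178.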

How the data were processed

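Libraries were matched to columns of both tables through the names given in their labels, and 0 columns lacked a sample. Per the labels, 100 to 380000 sorted cells gave RNA that was brought to 1 ng, amplified with SMART-Seq v4 in 11 or 17 cycles, prepared with Nextera XT and sequenced on a NextSeq500. Cycles and cell numbers of single libraries, the aligner and the counter are not given in the sources used here. GRCm38 and bcl2fastq appear in the submitters' processing notes. The authors deposited expected counts per protein-coding gene, of which 16.3% were not whole, and these were rounded. They also deposited log2 FPKM with 1 added for 27745 genes, with 1 common 75th percentile (2.936) over all libraries.

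Counts were tested in R 4.3.3 with edgeR 4.0.16 (filterByExpr, TMM, robust quasi-likelihood F test, Benjamini-Hochberg adjusted p under 0.05). The SE printed with an edgeR fold change is its absolute size divided by the square root of F, an approximation. The log2 FPKM values went to limma 3.58.1 (trend), for genes above 1 in at least 5 libraries. Printed CPM use TMM factors of all 33 libraries, and fold changes come from the 10 compared. Counting error is small at this depth, and 3 counts over the 5 libraries of a gate equal 0.0310 CPM (CCR2+) and 0.0322 CPM (CCR2-). This floor covers counting error only, and not loss of RNA from low cell input or amplification, which was not measured. Same-numbered libraries of the gates did not deviate together (correlations -0.104 to -0.0318), and the labels do not say what the numbers stand for. The libraries were therefore not treated as pairs, but these correlations do not exclude a pairing. No pair of replicates agreed within sampling noise.

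Members and all 58 gene lists were chosen with earlier results of these data known. Genes were named by rule: the 15 smallest p in each direction with a mean of 10 CPM and a log2 fold change of 1 or more, up to 5 members per list with called members against its majority and its highest one, Ccr2, Psap, Apoe, G0s2, Ptprc, Itgam and Csf1r, and 5 per direction among genes only in the log2 FPKM table and for the treatment difference. Outside that rule, and after their values were seen, Abcg1, Acp5, Adgre1, Arg1, Cd163, Ly6g, Lyve1, Mitf, Mrc1, Ncf1, P2ry12, Tfe3, Tfeb, Tfec and Tmem119 were added. Some genes that the rule names are not reported here. Alternatives were DESeq2 1.42.0, RLE size factors, no filter, all 33 libraries in 1 fit, voom with quality weights, limma on log2 FPKM, detected genes as a covariate, the replicate block, a threshold of 0.01 and leaving out each library.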

Additional observations from a re-analysis of the deposited data

Results flagged for a closer look

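In 6 of the 88 groups of 5 values that were checked, 1 library lay far from the other 4 of its gate by Dixon's test, and chance gives about 1 in 20. Rsad2 stood at 70.6 CPM in replicate 2 of the CCR2+ gate and P2ry12 at 148 CPM in replicate 3 of that gate, both above the others. C5ar1 stood at 1141 CPM in replicate 4 of the CCR2- gate, the library with the largest share of mature neutrophil genes (7.37% of counts). Cebpd stood at 254 CPM in replicate 2 of the CCR2- gate, the library with the fewest detected genes (9829). Ly6g stood at 0.277 CPM in replicate 2 of the CCR2+ gate, above its other 4 libraries, and BC100530 at 0.105 CPM in replicate 1 of the CCR2+ gate and at 0 in its other 4 libraries.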

How the results depend on the processing

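Called by edgeR in the comparison of all 5 libraries per gate were 2176 genes, and 1497 of them were also called in each of the 10 fits that left out a library (462 higher, 1035 lower). Those fits called 1650 to 3619 genes, and 4100 were called without the 2 CCR2- libraries with the fewest detected genes, a setting chosen after seeing the data. At an adjusted p under 0.01 there were 1225 calls, and with the replicate block 1401. Whether the replicate numbers pair the libraries is not given in the labels. None of the 5 vehicle numbers had its best correlation within its own pair. The count stayed within 1.5 times under DESeq2 (2898), RLE size factors (2181), no filter (2141), all 33 libraries in 1 fit (2759), voom (3069), detected genes as a covariate (3152) and log2 FPKM (3218). The median of all genes moved from 0.03 to -0.31 with detected genes as a covariate, to 0.15 with voom, and to 0.21 with log2 FPKM or the block. The treatment difference gave 32 calls under DESeq2 and 0 by edgeR. Among genes only in the log2 FPKM table, 178 to 269 were called with a library left out.

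Direction turned only for genes that had not passed, over the alternatives run. Calls were lost more often. Over 3681 cases of a named gene in an alternative, 3441 stayed the same, 170 lost their call, 50 gained one and 20 turned. Of 194 genes, 23 lost their call with all 33 libraries in 1 fit, 22 with the replicate block and 16 with detected genes as a covariate. With detected genes as a covariate Chil3 had -0.23, Mitf -0.17, Mrc1 0.20, Tfe3 -0.90 and Tmem119 -1.52. On log2 FPKM Laptm5 had 0.062 and Mrc1 0.35. Mrc1 had 0.27 with voom and 0.16 with the block. Without the 2 CCR2- libraries named above Tmem119 had -0.51. With single libraries left out Chil3 ran from -0.20 to 1.06, Mrc1 from -0.29 to 0.21 and Tmem119 from -0.23 to 0.55. The cause of these turns was not tested. The floor of 3 counts covers sequencing depth only. Replicate 2 of the CCR2- gate had 9829 detected genes at 18556124 counts, and replicate 2 of the CCR2+ gate had 13399 at 18289900. Loss of RNA from low cell input was not measured. The spread between CCR2- libraries was the larger of the gates for 94.9% of genes tested.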

Other observations

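Of 24 cell cycle genes 7 fell in the CCR2+ gate, 17 did not pass and 0 rose by edgeR (median -1.24), where 12.3% of all genes fell and 6.48% rose. The falls included Mki67, the nuclear protein of dividing cells (-1.62 ± 0.29), and Top2a, the topoisomerase of replicated DNA (-1.65 ± 0.34). Leaving out replicate 2 of the CCR2- gate gave 12 falls, and 20 fell in mice given the inhibitor. Of 23 oxidative phosphorylation genes 7 rose and 1 fell (median 0.28), with the ATP synthase subunit Atp5b at 0.51 ± 0.12 and, falling, Ndufa4 at -0.80 ± 0.21. There were 11 rises without replicate 2 of the CCR2- gate and 4 without replicate 3 of the CCR2+ gate, and Ndufa4 was not called without replicate 1 or 4 of the CCR2+ gate. Of 25 cytosolic ribosomal proteins 7 rose and 0 fell (median 0.32), and 15 rose without replicate 2 of the CCR2- gate. Glycolysis genes gave 3 rises and 4 falls among 19 (median -0.22), the falls including the glucose carrier Slc2a3 (-5.73 ± 0.42) and the lactate carrier Slc16a3 (-2.48 ± 0.37). Mature neutrophil genes took 2.89 to 7.37% of counts in the CCR2- libraries and 0.0836 to 0.125% in the CCR2+ libraries, and NK genes 0.117 to 0.488% and 0.0118 to 0.0265%. Their part in the rises and falls of this paragraph was not tested.

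Of 21 genes of the phagocyte oxidase and antioxidants 7 fell, 4 rose and 10 did not pass (median -0.49), where 12.3% of all genes fell and 6.48% rose. The cytosolic oxidase subunits Ncf1 (-0.53 ± 0.12) and Ncf4 (-1.12 ± 0.21) fell, while the membrane subunit Cybb rose. The part of the neutrophil share in these falls was not tested. Of 23 BCL2 family and apoptosis genes 6 fell, 17 did not pass and 0 rose by edgeR (median -0.38), with the survival genes Mcl1 at -0.87 ± 0.14 and Bcl2 at -1.44 ± 0.22. There were 4 falls without replicate 3 of the CCR2+ gate, and 1 member was higher without replicate 2 of the CCR2- gate. Receptors for colony-stimulating factors parted, since Csf1r rose while Csf3r, the receptor for the neutrophil factor G-CSF (-2.51 ± 0.21), and the shared chain Csf2rb (-0.67 ± 0.19) fell. In that list 1 of 8 rose and 4 fell, with 3 rises without replicate 2 of the CCR2- gate and 2 falls without replicate 5 of the CCR2+ gate.

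Counts of the remaining lists stood against 6.48% of all genes higher and 12.3% lower. Of 12 Fc gamma receptor genes 2 rose and 3 fell, with the inhibitory Fcgr2b at 1.32 ± 0.18 and the high-affinity receptor Fcgr1 at 1.17 ± 0.23. Toll-like receptor genes gave 4 rises and 2 falls among 19, with the endosomal receptors Tlr3 (1.23 ± 0.32) and Tlr7 (1.12 ± 0.25) and their chaperone Unc93b1 (0.96 ± 0.14) among the rises, of which 2 were called without replicate 2 of the CCR2+ gate. Of 15 MHC class I genes 1 rose and 2 fell, with 0 to 3 falls and 1 or 2 rises as each library was left out. Of 16 iron and heme genes 4 rose and 3 fell, with the exporter ferroportin, Slc40a1, at -4.39 ± 0.49, and 6 fell without replicate 2 of the CCR2- gate while 1 or 2 rose without replicate 1, 3 or 5 of the CCR2+ gate. Integrin and adhesion genes gave 4 rises and 7 falls among 20, with 4 falls without replicate 4 of the CCR2- gate and 3 without replicate 1, 4 or 5 of the CCR2+ gate. Of 14 C-type lectin receptors 3 rose and 3 fell, with the pattern receptors Clec4d and Clec4e at -2.32 ± 0.19 and -2.62 ± 0.22. The part of the neutrophil share in the falls of these lists was not tested. Of 20 fatty acid oxidation genes 3 rose, among them the transporter Cpt1a (0.84 ± 0.26), and 1 to 6 rose as each library was left out. Endothelial genes gave 2 rises among 7 (0 to 5 with a library left out), and 4 mural cell and fibroblast genes and 3 erythroid genes gave 0 calls by edgeR. Without replicate 2 of the CCR2- gate 1 endothelial and 1 mural cell or fibroblast gene fell.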
